A study of Mus musculus with 16 samples.

Results

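Near-identical genes are a group that short reads measure poorly, because a read from a shared stretch matches several places. The genes described here set untrained wild-type (WT) muscle apart from the other groups of a study of CHCHD4 and exercise: Gm17167, Gm13301, Gm5859 and Gm17081 on chromosome 4, Entpd4 and Gm16867 on chromosome 14, Dynlt1b and Tmem181b-ps on chromosome 17, and the histone gene Hist1h4m on chromosome 13. Gm13301 has 2 rows with different identifiers (ENSMUSG00000096862.3, which has a position, and ENSMUSG00000118434.1, which has none in the annotation used here and is grouped with the chromosome 4 rows by its symbol alone), so these 9 symbols make 10 of the 55487 rows of the deposited table. The rows were chosen by their levels in WT untrained libraries, which differ from those of the other groups, so that difference is given as a description, with no test.

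RNA of skeletal muscle was sequenced in 4 groups of 4 libraries: CHCHD4 Tg mice after treadmill training (Tg trained), CHCHD4 Tg mice without it (Tg untrained), WT mice after treadmill training (WT trained) and WT mice without it (WT untrained). CHCHD4 is a mitochondrial protein that helps imported proteins fold by oxidising their cysteines. The labels give neither the promoter of the transgene, the muscle, the strain, sex or age of the mice nor a batch. They also leave unsaid if each library is 1 animal, so every p-value reflects library-to-library spread, which may be technical. Library totals lay between 40888272 and 61703679 counts.

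The Chchd4 row itself averaged 21.8 ± 0.306 CPM (counts scaled to a common library size) in Tg trained and 20.3 ± 1.68 in Tg untrained libraries, against 8.14 ± 0.671 in WT trained and 7.90 ± 0.885 in WT untrained libraries (SD, n = 4 each). All 7 skeletal muscle markers (Acta1, Ckm, Myh4, Myh1, Ttn, Mb and Tnnt3) were present, with summed levels of 171506 to 182073 CPM in Tg trained, 160210 to 175767 in Tg untrained, 171931 to 189463 in WT trained and 123782 to 183847 in WT untrained libraries. The liver markers Alb and Apoa1 summed to at most 40.3 CPM in any library. The 3 adipocyte markers summed to 0.789 to 4.37 CPM in Tg trained, 5.999 to 25.4 in Tg untrained, 1.34 to 3.98 in WT trained and 5.12 to 15.6 in WT untrained libraries, so trained and untrained libraries of each genotype did not overlap, while the untrained groups did. In bulk tissue, fewer cells of a type and less RNA per cell cannot be told apart. Among sex markers, the female marker Xist was at most 0.0999 CPM and the Y-linked Ddx3y was 34.9 to 57.2 CPM over all 16 libraries, the pattern of male tissue. WT untrained replicate 2 stood apart by its scaling factor (1.28, the highest of 16), and values without it are given where they matter.

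Duplicated genes arise when a stretch of chromosome is copied, and the copies then share most or all of their transcript sequence. Counting software of the kind used here (RSEM) divides a read that matches several genes among them by a likelihood model, so the count of 1 copy depends on the counts of the others and need not be whole. A sum over copies does not depend on how reads were divided within the sum. Among the genes described here, Entpd4 encodes a nucleoside diphosphatase of internal membranes, Dynlt1b a light chain of the dynein motor that carries cargo along microtubules, and Hist1h4m the core histone H4. Tmem181b-ps is a pseudogene related to the membrane protein gene Tmem181a, and the rows with names in Gm are gene models without a described role.

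The sequences show how little separates the copies. Positions are those of GENCODE mouse release M21 on GRCm38, the build also called mm10. Hist1h4m (chr13:21811746-21812147, plus strand, 1 exon) has a neighbour, Hist1h4n (chr13:21831767-21832196, minus strand), 19620 bases away. The Hist1h4m transcript of 402 bases matched that of Hist1h4n, of 430 bases, at 401 bases, and the coding sequences of 309 bases without the stop codon were identical. The difference was G36A (positions counted from 1 at the first base of the Hist1h4m transcript, the Hist1h4m base first), 3 bases before the first coding base, at position 21811781 of chromosome 13. RefSeq start windows (GRCm38) of both genes are shown because this base, in capitals, is the single difference over the 299 bases that they share: chr13:21811496-21811795, plus strand, for Hist1h4m, which RefSeq calls H4c17, and chr13:21832148-21832447, minus strand, for Hist1h4n, called H4c18.
Hist1h4m: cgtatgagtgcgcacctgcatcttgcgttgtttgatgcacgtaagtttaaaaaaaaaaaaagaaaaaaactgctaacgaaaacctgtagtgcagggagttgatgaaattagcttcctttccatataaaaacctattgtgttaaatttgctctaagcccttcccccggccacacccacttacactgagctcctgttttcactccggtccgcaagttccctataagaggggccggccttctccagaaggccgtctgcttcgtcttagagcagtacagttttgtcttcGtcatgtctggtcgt
Hist1h4n: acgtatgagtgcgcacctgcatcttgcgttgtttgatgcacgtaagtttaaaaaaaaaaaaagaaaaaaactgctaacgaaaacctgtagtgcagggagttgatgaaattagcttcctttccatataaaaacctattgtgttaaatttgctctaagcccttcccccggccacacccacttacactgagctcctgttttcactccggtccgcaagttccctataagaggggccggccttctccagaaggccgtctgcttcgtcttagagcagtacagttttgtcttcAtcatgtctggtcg

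Dynlt1b (chr17:6430112-6436296, plus strand, 5 exons) had 3 copies, counted as transcripts with at least 95% identity over at least 50% of its length. Over its 771 bases, identity was 99.2% with Dynlt1c, 99.1% with Dynlt1f and 98.8% with Dynlt1a. In the coding sequence of 339 bases without the stop codon, each of the 3 differed from Dynlt1b at the same position, A21C (counted from the first coding base of Dynlt1b). The first 60 coding bases, all on chromosome 17, are shown because they hold that base, in capitals, from transcripts at chr17:6430112-6436296 (Dynlt1b, plus strand), chr17:6307994-6317500 (Dynlt1a, minus strand), chr17:6601671-6609679 (Dynlt1c, plus strand) and chr17:6648938-6655900 (Dynlt1f, minus strand).
Dynlt1b: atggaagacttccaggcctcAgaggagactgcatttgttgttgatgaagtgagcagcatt
Dynlt1a: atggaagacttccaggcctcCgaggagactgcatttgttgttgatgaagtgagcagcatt
Dynlt1c: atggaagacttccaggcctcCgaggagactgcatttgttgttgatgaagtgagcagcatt
Dynlt1f: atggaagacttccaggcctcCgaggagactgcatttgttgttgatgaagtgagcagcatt

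On chromosome 4, the described rows with a position lay within 33205 bases of the plus strand and shared sequence with each other. They are Gm17167 (chr4:42206998-42235313, processed transcript), Gm13301 (chr4:42216908-42235604, transcribed pseudogene, which overlaps Gm17167 over 18406 bases), Gm5859 (chr4:42236859-42239182, pseudogene) and Gm17081 (chr4:42239725-42240202, pseudogene). By the same copy rule, Gm5859 had 11 copies, Gm17081 had 10, Gm13301 had 7 and Gm17167 had 2, with other described rows among them. A stretch of 102 bases from the Gm17081 transcript is shown with its match in each of the others, because Gm17081, Gm17167 and Gm13301 are identical in it. Gm5859 differs by A64T and G97T (positions of the Gm17081 transcript, its base first), which are in capitals.
Gm17081: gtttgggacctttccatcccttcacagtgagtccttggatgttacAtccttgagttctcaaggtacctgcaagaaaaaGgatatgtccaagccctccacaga
Gm17167: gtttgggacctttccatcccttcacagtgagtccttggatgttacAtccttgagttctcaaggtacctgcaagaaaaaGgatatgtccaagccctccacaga
Gm13301: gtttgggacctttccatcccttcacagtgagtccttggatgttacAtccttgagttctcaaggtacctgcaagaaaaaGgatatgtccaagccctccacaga
Gm5859: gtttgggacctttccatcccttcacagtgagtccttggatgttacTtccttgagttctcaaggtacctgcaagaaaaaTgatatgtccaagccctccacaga

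Entpd4 (chr14:69337174-69367270, plus strand, 13 exons in its longest transcript) and Entpd4b (chr14:69555424-69585520, plus strand) could not be told apart by their longest transcripts, which had 0 differences over 3589 bases. Entpd4 has 6 transcripts, and the shorter ones were not compared. Gm16867 (chr14:69363504-69503362, minus strand) overlaps the end of Entpd4 over 3767 bases on the other strand, and whether the counting used strand is not stated, so reads there cannot be told apart. Its copy was Gm27177 (chr14:69582164-69683286, minus strand), which overlaps Entpd4b in the same way and is identical to Gm16867 over 79.2% of the Gm16867 transcript. Tmem181b-ps (chr17:6438524-6467022, minus strand) ends 2227 bases from the end of Dynlt1b and had no copy under the rule.

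Reads divided among genes leave fractional counts, and 144 of the 160 values of the 10 rows (90%) differed from a whole number by more than 0.001, against 30.6% of the values over the 17490 rows that passed the filter on low counts. All 10 rows passed it. For 3 rows, Entpd4, Gm16867 and Tmem181b-ps, none of the 16 values was whole. Tmem181b-ps had no copy under the rule, and Gm16867 overlaps Entpd4 as well as having a copy. The source of the fractional values of each row was not tested.

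In all 10 rows the 4 WT untrained libraries did not overlap the other 12, which is the property they were picked for; 0.892% of all tested rows had it. In 8 rows (all but Dynlt1b and Tmem181b-ps) the WT untrained libraries lay below the other 12, as in 0.549% of tested rows, and in Dynlt1b and Tmem181b-ps they lay above, as in 0.343%.

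**Figure D1:**
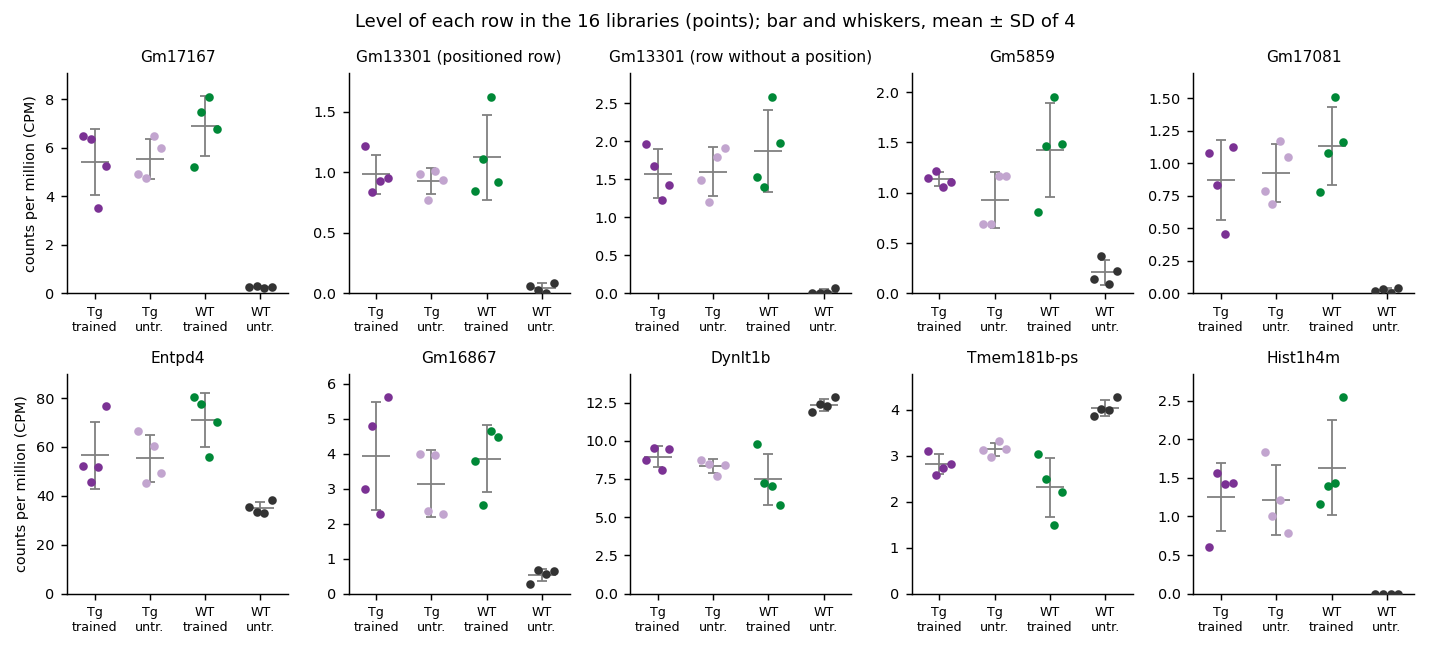
CPM (vertical axes, linear, from 0) of the 10 rows in the 16 libraries, with groups along the horizontal axes, the bar and whiskers giving the mean ± SD of 4. In the first 7 panels and in Hist1h4m the WT untrained points lie below all others, and in Dynlt1b and Tmem181b-ps they lie above.

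Gm17167, both Gm13301 rows, Gm5859 and Gm17081 were near 0 or low in every WT untrained library. Gm17167 measured 6.47, 6.36, 3.52 and 5.27 CPM in Tg trained, 4.90, 4.77, 6.48 and 5.998 CPM in Tg untrained, and 5.20, 7.49, 8.10 and 6.78 CPM in WT trained libraries, against 0.281, 0.295, 0.220 and 0.269 CPM in WT untrained libraries. The lowest of the other 12, Tg trained replicate 3, was still far above every WT untrained library. Its summed counts were 3515 over the 12 other libraries and 53 over the 4 WT untrained libraries, a ratio per unit of depth of 22.0 (95% exact interval 16.8 to 29.5, counting error only).

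The positioned Gm13301 row had 37.8 to 61.98 counts in the other 12 libraries, with a median of 48.5, against 3.18, 1.48, 0 and 4.28 counts in WT untrained libraries, a ratio of 21.9 (11.5 to 48.2). The second Gm13301 row had 58.7 to 105 counts in the other 12, with a median of 86.9, against 0.20, 0, 0 and 3.57 counts in WT untrained libraries, a ratio of 82.8 (32.2 to 304). With so few counts in WT untrained muscle, the size of these ratios is poorly known although the groups do not overlap. For the second Gm13301 row nearly all WT untrained counts were in replicate 4: the fitted log2 value was 6.21 (SE 0.47) with all libraries and 9.38 (SE 0.62) without it, and as only 0.20 counts then remain neither value is a bound. Gm17081 had 23.2 to 64.4 counts in the other 12, with a median of 48.9, against 1.00, 1.71, 0 and 2.00 counts in WT untrained libraries, a ratio of 38.2 (16.3 to 118). Gm5859 had 33.7 to 74.6 counts in the other 12, with a median of 60.02, against 7.24, 20.9, 4.00 and 11.1 counts in WT untrained libraries, a ratio of 5.27 (3.87 to 7.34). The Gm5859 row thus kept a larger share of its level in WT untrained libraries than the other described chromosome 4 rows did. These rows share sequence, so reads may be divided among them, and the part of that division in this difference was not tested. On the fitted log2 scale, the mean of the 3 other groups exceeded WT untrained by 4.46 for Gm17167 (SE 0.22) and by 2.40 for Gm5859 (SE 0.31). Without WT untrained replicate 2, which held 20.9 of the 43 Gm5859 counts of its group, the Gm5859 value was 2.87 (SE 0.33).

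Adding the copies did not close the gap. Over 15 rows, these 5 and 10 copies on chromosome 4, the sum was 7.40 to 15.9 CPM in the other 12 libraries and 0.491 to 1.33 CPM in WT untrained libraries. In the other 12 the 5 rows made up a mean of 10.8 of the 11.3 CPM. The gap in the sum is therefore largely the difference the rows were picked for. Of those 10 copies, only Gm12394 (chr4:42781928-42856771) had a mean of at least 10 counts, and its groups overlapped, with 0 to 1.03 CPM in the other 12 and 0 to 0.505 CPM in WT untrained libraries. Of 11 other tested genes within 500 kb of the chromosome 4 rows, 0 passed the edgeR quasi-likelihood test of the other groups against WT untrained at a Benjamini-Hochberg adjusted p under 0.05, and 1 had an unadjusted p under 0.05. Over all tested rows 0.886% were called in this comparison, 0.469% higher and 0.417% lower.

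On chromosome 14, Entpd4 measured 52.1, 45.7, 51.7 and 76.6 CPM in Tg trained, 66.3, 45.4, 60.3 and 49.3 CPM in Tg untrained, and 80.4, 77.7, 56.0 and 70.1 CPM in WT trained libraries, against 35.3, 33.3, 33.1 and 38.4 CPM in WT untrained libraries. Its level in the 3 other groups was 1.74 times that of WT untrained libraries. The 4 WT untrained values were close together and the others spread widely.

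The sum of Entpd4 and Entpd4b does not depend on how reads were divided between them. The sum was 94.6, 133, 93.4 and 138 CPM in Tg trained, 122, 83.3, 109 and 89.1 CPM in Tg untrained, and 109, 103, 131 and 125 CPM in WT trained libraries, against 65.9, 60.8, 60.8 and 69.2 CPM in WT untrained libraries. The groups stayed apart in the sum. Entpd4b alone overlapped, with 24.9 to 86.9 CPM in the other 12 and 27.5 to 30.9 CPM in WT untrained libraries, and it was not called (log2 fold change 0.76, SE 0.25, edgeR quasi-likelihood adjusted p = 0.139). The part of the sum given to Entpd4 was 53.6% to 56.0% in 12 of the 16 libraries, all 4 WT untrained among them. In the other 4 it was 34.5% (Tg trained replicate 2), 74.1% (WT trained replicate 1), 75.8% (WT trained replicate 2) and 42.7% (WT trained replicate 3). The part of this division in the spread of the single rows was not tested.

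Gm16867 measured 3.00, 4.79, 2.28 and 5.61 CPM in Tg trained, 3.99, 2.35, 3.97 and 2.26 CPM in Tg untrained, and 3.77, 2.53, 4.64 and 4.48 CPM in WT trained libraries, against 0.288, 0.673, 0.555 and 0.647 CPM in WT untrained libraries. Each of the 12 other libraries had more than 3 times the level of the highest WT untrained library. With its copy Gm27177 added, the sum was 3.23 to 6.93 CPM in the other 12 and 0.653 to 1.40 CPM in WT untrained libraries. Gm27177 alone was 0.672 to 2.71 CPM in the other 12 and 0.365 to 0.723 CPM in WT untrained libraries, and its groups overlapped by 1 library.

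The same stretch of chromosome 14 held most of the called neighbours. Gm20236, Gm37094, Gm38378, Gm37513 and Gm21451 were called higher in the other groups, 5 of 14 tested genes within 500 kb, and 0 were called lower. Over all tested rows 0.469% were called higher. By position, Gm37094, Gm38378 and Gm21451 lie within the described gene Gm16867, and Gm37513 lies within its copy Gm27177. Reads of overlapping genes may be shared, so these calls may not be observations separate from Gm16867. All 5 are gene models without a described role. Gm20236 rose by 1.85 on the log2 scale (SE 0.30, edgeR quasi-likelihood adjusted p = 0.00754), with 0.437 to 1.07 CPM in the other 12 and 0.0825 to 0.222 CPM in WT untrained libraries. Gm37094 had exactly the same value as Gm20236 in every library and lies 218250 bases further along, the offset that also separates Entpd4b from Entpd4, so both rows are 1 measurement. Gm38378 and Gm37513, 218275 bases apart, likewise shared every value, with a log2 fold change of 1.87 (SE 0.37, edgeR quasi-likelihood adjusted p = 0.0303).

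Those last calls rest on few counts, 6 to 19 in the other 12 libraries and at most 4.50 in WT untrained libraries. They were lost (adjusted p of 0.0517 to 0.0854) when Tg trained replicate 2 or 4 or any single WT untrained library was left out. Gm21451, an unprocessed pseudogene at chr14:69390854-69480287, had 0 counts in all 4 WT untrained libraries and in WT trained replicate 2, and 12.4 to 85.1 counts in the other 11. Set against a floor of 3 counts per library, its mean level was at least 12.9-fold higher in the other groups, and limma-voom did not call it (adjusted p = 0.0869). Its counts were partly fractional, as when reads are divided among genes. Copies of Gm21451 were not sought and no sum was formed, so the part of such division in its 0 counts was not tested. Slc25a37 and Loxl2, protein-coding genes at either end that reach into the duplicated stretch, overlapped between groups. Slc25a37, which encodes mitoferrin, had 9.49 to 14.2 CPM in the other 12 and 12.1 to 15.2 CPM in WT untrained libraries. Loxl2, a lysyl oxidase, had 8.13 to 15.3 CPM in the other 12 and 8.84 to 15.7 CPM in WT untrained libraries. Gm20236 lies within Slc25a37 and Gm37513 within Loxl2, and reads of such overlapping genes cannot be told apart.

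**Figure D2:**
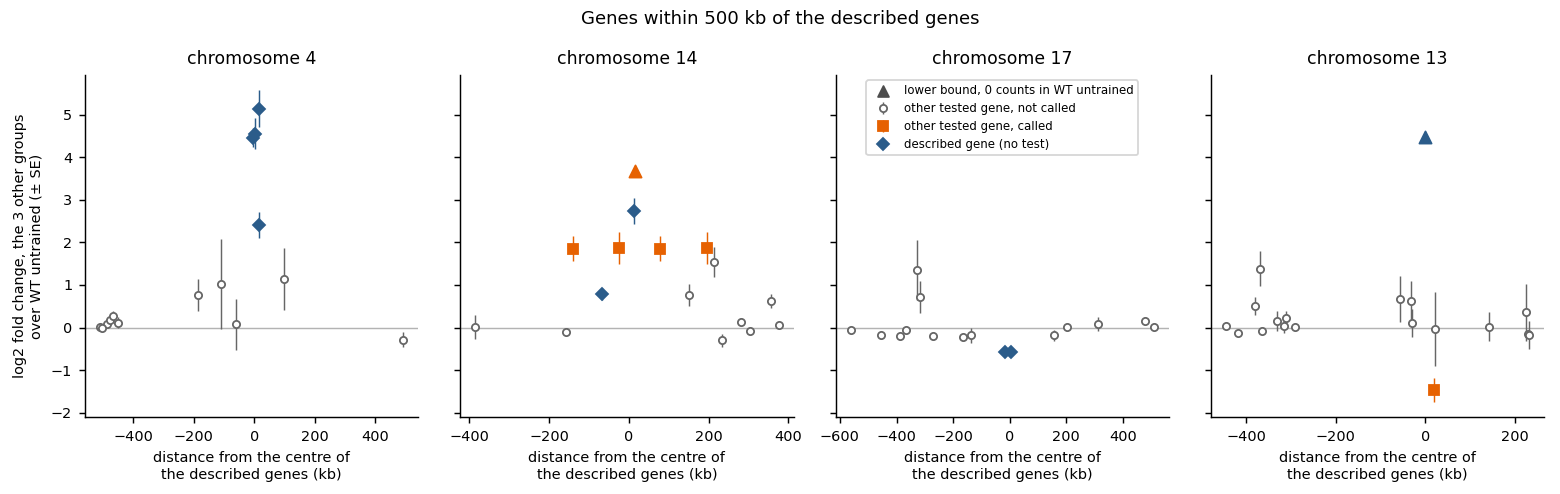
Fitted log2 fold change of the 3 other groups over WT untrained (vertical axis, whiskers ± SE) against distance from the centre of the described genes in kb, for tested genes within 500 kb on chromosomes 4, 14, 17 and 13. Triangles are lower bounds for rows with 0 counts in all WT untrained libraries. The called neighbours are 5 on chromosome 14, above 0, and Hist1h4n on chromosome 13, below 0.

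On chromosome 17 the direction was the opposite. Dynlt1b measured 8.75, 9.56, 8.07 and 9.49 CPM in Tg trained, 8.77, 8.48, 7.68 and 8.41 CPM in Tg untrained, and 9.81, 7.25, 7.02 and 5.82 CPM in WT trained libraries, against 11.9, 12.4, 12.3 and 12.9 CPM in WT untrained libraries. The fitted log2 fold change of the other groups over WT untrained was -0.58 (SE 0.09). The WT trained libraries had the widest spread, with replicate 1 closest to the WT untrained level.

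Among the copies the groups overlapped. Dynlt1a, Dynlt1c and Dynlt1f together gave 5.41 to 7.16 CPM in the other 12 and 5.77 to 7.33 CPM in WT untrained libraries. With Dynlt1b added, the sum was 12.4 to 16.5 CPM in the other 12 and 18.03 to 19.7 CPM in WT untrained libraries, which did not overlap. The part of the sum given to Dynlt1b was 47.0% to 61.4% in the other 12 and 61.8% to 68.0% in WT untrained libraries.

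Tmem181b-ps measured 3.10, 2.59, 2.73 and 2.83 CPM in Tg trained, 3.13, 2.98, 3.32 and 3.14 CPM in Tg untrained, and 3.04, 2.49, 1.498 and 2.21 CPM in WT trained libraries, against 3.87, 4.02, 4.00 and 4.27 CPM in WT untrained libraries. Its fitted log2 fold change was -0.56 (SE 0.11), close to that of Dynlt1b next to it. Tmem181a, its protein-coding relative, overlapped at 5.94 to 7.65 CPM in the other 12 and 7.01 to 9.10 CPM in WT untrained libraries (log2 fold change -0.22, SE 0.08, edgeR quasi-likelihood adjusted p = 0.169). Of 14 other tested genes within 500 kb on chromosome 17, 0 were called by edgeR and 3 had an unadjusted p under 0.05.

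Hist1h4m was high where its copy was low. It had 27.9, 88.8, 71.9 and 73.6 counts in Tg trained, 91.7, 49.0, 66.8 and 42.8 counts in Tg untrained, and 62.6, 60.1, 54.6 and 122 counts in WT trained libraries, against 0 counts in each of the 4 WT untrained libraries. Against a floor of 3 counts per library, its mean level was at least 22.3-fold higher in the other groups. Hist1h4n had 110.4, 25.1, 61.5 and 55.5 counts in Tg trained, 85.3, 63.8, 38.2 and 87.7 counts in Tg untrained, and 71.8, 45.3, 50.5 and 47.9 counts in WT trained libraries, against 155, 301, 127 and 115 counts in WT untrained libraries. In CPM, 11 of the other 12 libraries lay below every WT untrained library, with Tg trained replicate 1 the exception.

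Summed, Hist1h4m and Hist1h4n overlapped, at 1.91 to 3.55 CPM in the other 12 and 2.32 to 5.34 CPM in WT untrained libraries. Hist1h4n was called lower in the other groups (log2 fold change -1.46, SE 0.28, edgeR quasi-likelihood adjusted p = 0.0248), but its counts and those of Hist1h4m come from reads divided between both, so the call is not a separate observation. It was lost when Tg trained replicate 4 or WT untrained replicate 1, 2 or 3 was left out (adjusted p of 0.0501 to 0.0848). The part of the sum given to Hist1h4m was 0% in all 4 WT untrained libraries and 20.2% to 78.0% in the other 12. Of 3 other copies of Hist1h4m, H4c2 alone had a mean of at least 10 counts, with 4.37 to 17.8 counts in the other 12 and 6.10 to 31.4 counts in WT untrained libraries, which overlapped.

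**Figure D3:**
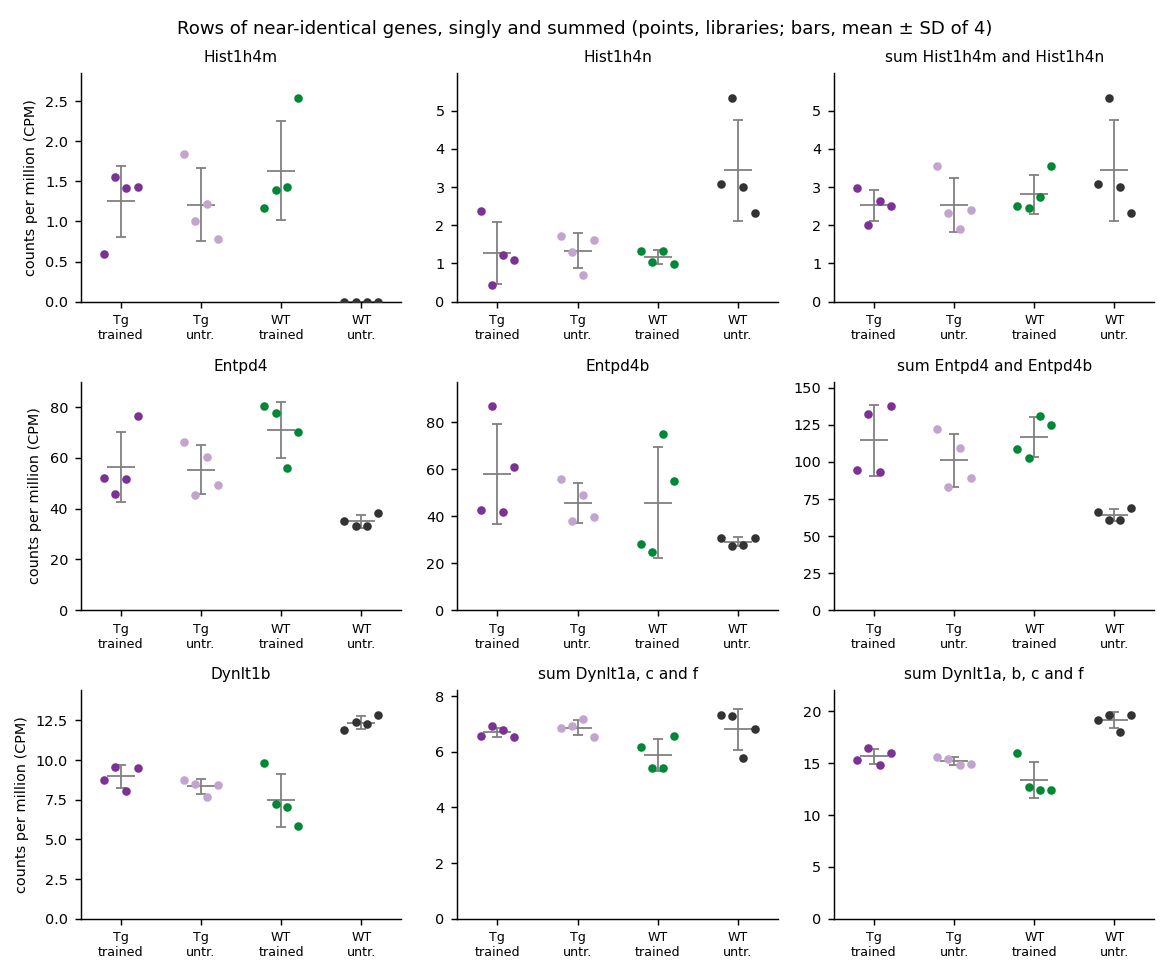
CPM (vertical axes, linear, from 0) of 3 sets of near-identical genes in the 16 libraries, with single genes at left, the other copies (for Dynlt1, the sum of Dynlt1a, Dynlt1c and Dynlt1f) in the middle and the sum of all at right, and the mean ± SD of 4 per group. In the sums of Entpd4 with Entpd4b and of the Dynlt1 genes the WT untrained points stand apart, while in the sum of Hist1h4m and Hist1h4n they overlap the others.

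Relatives of the described genes, near-identical copies such as Dynlt1a and Hist1h4n among them, were then set beside the described rows in the comparison of the other groups with WT untrained. Of 5 Dynlt1 relatives (Dynlt1a, Dynlt1c, Dynlt1f, Dynlt3 and Dynlt1-ps1), all tested, 0 were called, with a median log2 fold change of -0.18. Of 5 other dynein light chain genes, 4 were tested and 0 were called, with a median of 0.07. Of 8 other Entpd genes, 6 were tested and 0 were called, with a median of 0.04. Entpd4b, whose longest transcript is identical to that of Entpd4, was among those tested and lay well above that median, at 0.76 (SE 0.25). Of 12 other histone H4 genes, 9 were tested, 0 were called higher and 1, Hist1h4n, was called lower, with a median of 0.00. Over all tested rows the median was -0.0001, with 0.469% called higher and 0.417% called lower.

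Genes that are known to differ among stocks of C57BL/6 mice were counted too, since the labels name no strain. Of 4 such genes with 5 rows, all tested, edgeR called 0, with a median log2 fold change of -0.91. Nnt, which encodes the mitochondrial enzyme that couples the proton gradient to NADPH and carries a deletion in C57BL/6J mice, has 2 rows. Their sum was 10.6, 11.2, 36.9 and 11.1 CPM in Tg trained, 9.57, 32.5, 17.02 and 11.6 CPM in Tg untrained, and 10.6, 27.9, 10.8 and 26.8 CPM in WT trained libraries, against 44.8, 36.5, 42.8 and 47.2 CPM in WT untrained libraries. Tg trained replicate 3 reached the lowest WT untrained library and the other 11 lay below. The larger Nnt row had a log2 fold change of -1.28 (SE 0.38, edgeR quasi-likelihood adjusted p = 0.102). With single libraries left out it was called in 1 of 16 fits, that without Tg trained replicate 3 (-1.59, SE 0.27, edgeR quasi-likelihood adjusted p = 0.0141). Over the 16 fits the adjusted p reached 0.183.

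Wdfy1, an endosomal phosphoinositide-binding protein gene, had 5.58 to 11.98 CPM in the other 12 and 14.3 to 17.7 CPM in WT untrained libraries, which did not overlap. Its log2 fold change was -0.91 (SE 0.21), with an edgeR quasi-likelihood adjusted p of 0.0524 and a DESeq2 adjusted p of 0.00479. The limma-voom adjusted p was 0.0477. With edgeR it was 0.0291 with no filter and 0.0466 with the CPM filter. When single libraries were left out, edgeR called Wdfy1 in 0 of 16 fits (adjusted p of 0.0502 to 0.112). Ide and Fgfbp3, a pair of neighbours duplicated in some C57BL/6J stocks, overlapped, with Ide at 77.9 to 122 CPM in the other 12 and 81.1 to 126 CPM in WT untrained libraries. Stock, litter and batch are not given by the labels, and the part of any of them in the levels of the described rows was not tested.

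Comparisons among the 3 groups outside WT untrained were not the ones the rows were chosen by, but the values of these groups entered that choice, so the counts for the 10 rows describe them and are no independent test. In Tg trained against Tg untrained, edgeR called 0 of the 10 rows (0% of all tested rows), with 0 at an unadjusted p under 0.05 and log2 fold changes from -0.16 to 0.32. In Tg trained against WT trained it called 0 of the 10 (0.0114% of all tested rows, 0.00572% higher and 0.00572% lower), with 2 at an unadjusted p under 0.05 and log2 fold changes from -0.38 to 0.28. In Tg untrained against WT trained it called 0 of the 10 (0.0229% of all tested rows, 0.00572% higher and 0.0172% lower), with 2 at an unadjusted p under 0.05 and log2 fold changes from -0.60 to 0.43. DESeq2 and limma-voom also called 0 of the 10 in each of these 3 comparisons.

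The smallest adjusted p in these comparisons was that of Tmem181b-ps, at 3.14 ± 0.142 CPM in Tg untrained and 2.31 ± 0.642 CPM in WT trained libraries (SD, n = 4 each; log2 fold change 0.43, SE 0.15, edgeR quasi-likelihood adjusted p = 0.255). Standard errors ran from 0.11 for Dynlt1b to 0.33 for Hist1h4m, and a p that misses the threshold does not show that the groups were alike. Over all genes, edgeR called 0 rows in Tg trained against Tg untrained (1938 at an unadjusted p under 0.05, 126 called by DESeq2 and 0 by limma-voom).

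Over the 12 libraries outside WT untrained, Pearson's r of log2(CPM + 0.5) was above 0 in all pairs among Gm17167, both Gm13301 rows, Gm5859 and Gm17081, from 0.60 to 0.89, but several pairs rested on few libraries. Between Gm17167 and Gm17081, the highest, r was 0.89 (Spearman's rho 0.87), 0.87 after group means were removed, and 0.70 without the 2 libraries farthest from the Gm17167 median. Between the 2 Gm13301 rows it was 0.70 (rho 0.41) and 0.16 without the 2 farthest libraries, and between the second Gm13301 row and Gm5859 it was 0.70 (rho 0.64) and 0.32 without them. Between the positioned Gm13301 row and Gm5859 it was 0.69 (rho 0.35) and 0.495 without them. Between Dynlt1b and Tmem181b-ps it was 0.57 (rho 0.39), 0.46 after group means were removed, and 0.07 without the 2 libraries farthest from the Dynlt1b median, so that relation rests on those libraries. Between Entpd4 and Gm16867 it was 0.37 (rho 0.31), 0.34 after group means were removed, and higher, at 0.64, without the 2 farthest libraries. The median r was 0.70 over the 12 pairs grouped together (the second Gm13301 row with the chromosome 4 rows by its symbol) and -0.04 over the 33 other pairs. Those 33 ran from -0.77 (Gm5859 with Tmem181b-ps) to 0.53 (Gm16867 with Hist1h4m), so a median near 0 does not mean that each pair was unrelated. The paired rows share libraries, depth and, among the Gm rows, reads divided between them, and these values are descriptions with no test.

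**Figure D4:**
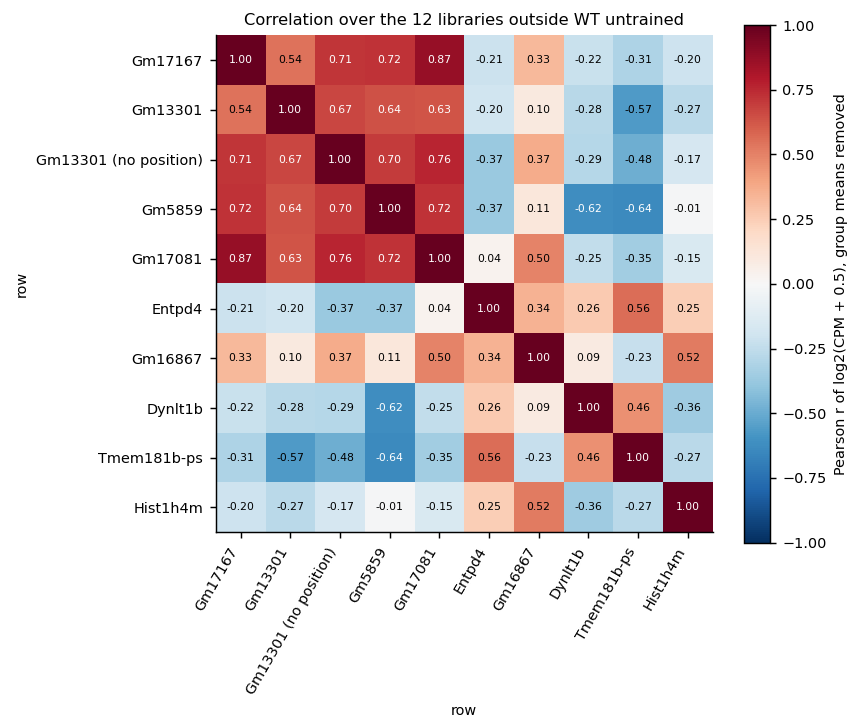
Pearson's r (colour and printed value) between every pair of the 10 rows over the 12 libraries outside WT untrained, from log2(CPM + 0.5) with group means removed. The block of high values at the upper left holds Gm17167, both Gm13301 rows, Gm5859 and Gm17081, with 0.87 between Gm17167 and Gm17081.

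Over all 16 libraries, the 3 other genes most like each row by Pearson's r of log2(CPM + 0.5) were listed as a description, which the gap between WT untrained and the rest dominates. Gm50470, a gene model with no position in the annotation used here, was listed for 6 of the 10 rows, with r of 0.92 to Gm17081, and had 5.99 to 21.3 counts in the other 12 and 2.00 in each WT untrained library. Lrmda, a leucine-rich repeat gene on chromosome 14, was listed for 4 rows, with r of 0.92 to Hist1h4m, and had 34 to 67 counts in the other 12 and 9 to 27 in WT untrained libraries. Gm10524 and Gm46620, neighbouring gene models on chromosome 18, were listed for 3 and 2 of the rows Gm17167 and Gm13301. For Entpd4 the list held Pik3r2, Arhgap20os and Cdc6, with r of 0.85, 0.84 and 0.82.

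Gm16867 was most like Lrmda, Wipf2 and Gm20236, with r of 0.90, 0.88 and 0.88. Wipf2 encodes a regulator of actin assembly and lies beside the replication gene Cdc6 on chromosome 11. Dynlt1b was most like Tmem19, Wdr48 and Wdfy1, with r of 0.87, 0.85 and 0.81, and those most like Tmem181b-ps included Sf3b3 and Zfp781, with r of 0.87 and 0.85. Tmem19, a membrane protein gene on chromosome 10, had 5.95 to 8.17 CPM in the other 12 and 9.75 to 13.1 CPM in WT untrained libraries. Gm10599, Leng8, G530011O06Rik and Rell1 were each listed for 1 row.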

How the data were processed

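Skeletal muscle RNA-seq of 16 libraries was used. Per the labels' protocols, a spin-column kit gave the RNA and a SMARTer mRNA-seq kit the libraries. Per the submitters' processing notes, STAR 2.7.8a, RSEM 1.3.2 and the mm10 build were used. The authors deposited RSEM expected counts per gene, not normalized. The annotation release and strand setting are not given in the sources used here.

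Expected counts were rounded, filtered with filterByExpr by group (17490 of 55487 rows) and scaled with TMM. All 16 libraries entered 1 edgeR 4.0.16 quasi-likelihood model (R 4.3.3) with a mean per group, with calls where the Benjamini-Hochberg adjusted p, over all tested rows, was under 0.05. CPM use the unrounded values and TMM-scaled totals. "Other groups" is the mean of the 3 groups outside WT untrained, and no p is given for the described rows in it. Exact 95% intervals and the floor of 3 counts cover counting error only. Copies were sought with blastn 2.17.0 between M21 transcripts, and positions were matched by identifier without version (55227 rows). Sequences came from RefSeq start windows and M21 transcripts. The members and lists were chosen with earlier results of these data known. Named genes were the members, copies with a mean of at least 10 counts, up to 5 called neighbours within 500 kb per locus, the 3 genes most like each row (1 is not reported here), and called list members; Tmem181a, Slc25a37, Loxl2, Nnt, Wdfy1, Ide and other uncalled genes were named after their values were seen. No replicate pair agreed within sampling noise (lowest chi-square per degree of freedom 6.62). Alternatives were RLE scaling, other filters, DESeq2 1.42.0, limma-voom (limma 3.58.1), a replicate block, only the groups compared, leaving out each library, and copies summed.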

Additional observations from a re-analysis of the deposited data

Results flagged for a closer look

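Dixon's test at the 95% level picked out 3 of 67 groups of 4 libraries; chance alone gives about 1 in 20. The Gm13301 row without a position measured 0.0719 CPM in WT untrained replicate 4, the highest of its group, with the next library at 0.00400 CPM. Hist1h4m measured 0.599 CPM in Tg trained replicate 1, the lowest of its group, with the next at 1.41 CPM; Hist1h4n was highest of the group in that library. The summed Dynlt1a, Dynlt1b, Dynlt1c and Dynlt1f level was 15.96 CPM in WT trained replicate 1, the highest of its group, with the next at 12.7 CPM.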

How the results depend on the processing

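All 10 rows kept their direction against WT untrained under each alternative and with each library left out, except Hist1h4m with its copies summed (-0.33). Counts of called genes moved more. Against WT untrained (155 called), DESeq2 called 579, and leaving out a library gave 62 (Tg trained replicate 4) to 320 (WT trained replicate 4). In Tg trained against Tg untrained (0), DESeq2 called 126, no filter 5 and only the groups compared 123, with 0 to 93 when a library was left out, 93 without WT untrained replicate 2. In Tg trained against WT trained (2), DESeq2 called 54, only the groups compared 5, and the CPM filter and no filter 1 each, with 1 to 16 when a library was left out, 16 without WT trained replicate 2. In Tg untrained against WT trained (4), DESeq2 called 219 and only the groups compared 7, with 1 to 285 when a library was left out, 285 without WT untrained replicate 2. The replicate block gave 103 calls against WT untrained and 1 in Tg trained against WT trained. Over 24 same-numbered pairs r ran from -0.15 to 0.18 (mean 0.014, 6 over 0.1), against a mean of -0.0045 over 72 other pairs. Of 16 libraries, 7 correlated best with their own number. These values do not settle whether equal numbers mark paired libraries. Pairs of a described row and a copy numbered 39, 21 at 98% identity and 20 at 80% of the transcript. A gene that is a copy of several rows counts in each of its pairs, and described rows count as copies of each other. The copies that are not described rows were 19 genes.

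Near-zero differences changed sign: Gm16867 in Tg trained against WT trained with limma-voom (-0.0097), copies summed (-0.077) and libraries left out (-0.19 to 0.22), and the positioned Gm13301 row there (-0.30 to 0.046). In Tg trained against Tg untrained they were, with copies summed, Hist1h4m (-0.0099), Gm5859 and Gm13301 (-0.024 each), and with libraries left out Hist1h4m (-0.11 to 0.33), Gm17081 (-0.24 to 0.12), Gm17167 (-0.13 to 0.12), Entpd4 (-0.15 to 0.13) and Gm13301 (-0.037 to 0.15 and -0.16 to 0.069). The smaller Nnt row against WT untrained gave -1.58 to 0.61. The cause of these changes was not tested. Depth limits the WT untrained values of the chromosome 4 rows and Hist1h4m, at 0 to 20.9 counts a library.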

Other observations

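The Wdfy1 level outside WT untrained fell into 2 ranges that each held libraries of all 3 groups. It was 6.01, 11.6, 6.16 and 11.6 CPM in Tg trained, 11.8, 6.27, 6.43 and 11.98 CPM in Tg untrained, and 10.6, 5.58, 9.90 and 6.03 CPM in WT trained libraries, against 17.7, 14.3, 17.2 and 15.9 CPM in WT untrained libraries. The summed Nnt level was likewise uneven outside WT untrained, above 17 CPM in Tg trained replicate 3, Tg untrained replicates 2 and 3, and WT trained replicates 2 and 4, and under 12 CPM in the rest. The Wdfy1 and Nnt ranges were noticed after the values were seen, and neither was tested.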
